A study of Mus musculus with 8 samples.

Results

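The mevalonate pathway from HMG-CoA synthase to squalene synthase was represented by 7 genes of the 12393 genes that had a probe set of their own on the array. They were chosen as consecutive steps of the pathway and taken in order, namely Hmgcs1, Mvk, Pmvk, Mvd, Idi1, Fdps and Fdft1. Every probe set whose only gene symbol was one of these names was used, which gave 17 of the 22626 probe sets tested. Hmgcs1 and Fdft1 had 4 probe sets each, Mvk, Mvd, Idi1 and Fdps had 2 each, and Pmvk had 1. Acat2, at the entry to the pathway, was not analysed here.

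Expression was measured once per group in each of 4 mouse hematopoietic cell lines, on 8 Affymetrix arrays in all. Their full names are PICALM6A (6A), PICALM6B (6B), PICALM6D (6D) and PICALM84 (84). The 4 PICALM-rescued samples were Picalm-null cells transduced with human PICALM cDNA in a retroviral vector with neomycin selection. The 4 Picalm-knockout samples were the same lines with the empty vector. Both groups carried the fit1 Picalm fit1-5R alleles on the B6(Cg)-TyrC-2J/J background, came from E14 fetal liver, and had been immortalized with a retrovirus that expressed the leukemia fusion MLL-ENL. Both were grown with 10% FBS, interleukin-3 at 5 ng/ml and stem cell factor at 50 ng/ml. Each line was selected by serial replating and is 1 immortalized culture, the viral promoter may drive PICALM above its natural level, and no wild-type line was on the arrays. Picalm itself was not analysed here, so the group labels were not checked against its level.

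The mevalonate pathway builds isoprenoids from acetyl-CoA. Its early steps lead through HMG-CoA to mevalonate, 3 ATP-dependent steps turn mevalonate into isopentenyl diphosphate, and prenyl transferases join these units into farnesyl diphosphate, from which cells make squalene and then cholesterol, and also dolichol, ubiquinone and the lipid anchors of small GTPases. Transcription of these enzymes is driven by SREBP2, which is held in the endoplasmic reticulum when membrane sterol is high and is released when it is low. Cells that divide in culture use the pathway for new membrane, and they can also take up cholesterol from serum lipoproteins.

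The start regions of the members are shown because the 7 genes are known SREBP2 targets and were higher together in these cells. Promoters were taken from RefSeq (GRCm38.p6) as the 250 bases before the annotated start, and 5 of the 7 genes had one. The 4 below are read 5′ to 3′ on the strand of the gene, and capitals mark every match to a searched motif, on either strand. Hmgcs1 lies at chr13:119690101-119690350 on the plus strand, Mvk at chr5:114444019-114444268 on the plus strand, Mvd at chr8:122443423-122443672 on the minus strand and Idi1 at chr13:8885356-8885605 on the plus strand.
Hmgcs1: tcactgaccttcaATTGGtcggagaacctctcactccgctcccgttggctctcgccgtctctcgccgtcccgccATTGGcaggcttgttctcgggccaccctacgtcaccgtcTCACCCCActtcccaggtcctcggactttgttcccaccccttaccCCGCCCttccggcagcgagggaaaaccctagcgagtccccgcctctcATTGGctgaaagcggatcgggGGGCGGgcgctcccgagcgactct
Mvk: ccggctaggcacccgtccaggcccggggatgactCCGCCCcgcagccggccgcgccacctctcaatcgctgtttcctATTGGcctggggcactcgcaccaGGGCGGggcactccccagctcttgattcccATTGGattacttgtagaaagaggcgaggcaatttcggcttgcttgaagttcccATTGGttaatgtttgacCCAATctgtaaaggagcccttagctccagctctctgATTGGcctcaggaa
Mvd: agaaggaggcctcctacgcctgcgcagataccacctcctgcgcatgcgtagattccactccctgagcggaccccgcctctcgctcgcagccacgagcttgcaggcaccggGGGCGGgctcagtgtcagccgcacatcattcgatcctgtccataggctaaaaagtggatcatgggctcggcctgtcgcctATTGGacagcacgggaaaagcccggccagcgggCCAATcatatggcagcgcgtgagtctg
Idi1: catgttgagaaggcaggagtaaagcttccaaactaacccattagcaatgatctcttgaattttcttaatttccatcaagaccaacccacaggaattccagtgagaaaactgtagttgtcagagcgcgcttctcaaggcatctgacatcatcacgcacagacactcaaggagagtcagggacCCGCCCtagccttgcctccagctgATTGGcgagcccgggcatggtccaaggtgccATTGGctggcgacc
The motifs searched were an SRE-like element (TCACNCCA), the CCAAT box (CCAAT), which binds NF-Y, the GC box (GGGCGG), which binds Sp1, and the palindromic E-box (CACGTG). Pmvk has 2 annotated promoters, so the 5 genes had 6. The CCAAT box was in 5 of the 6 promoters, with 3 copies in Hmgcs1, 5 in Mvk, 1 in the first and 0 in the second promoter of Pmvk, 2 in Mvd and 2 in Idi1, and in 33.8% of the 32851 mouse promoters of the same length. One of the Mvk and one of the Mvd copies read in the gene's own direction and the other copies of these 4 promoters lay on the opposite strand. The GC box was in 4 of the 6, those of the genes printed above, and in 32.7% of all promoters. The SRE-like element was in that of Hmgcs1 alone of the 6, 137 bases before the start, and in 3.7% of all promoters. The E-box was in 0 of the 6 and in 6.0% of all promoters. These are letter matches in a fixed window, not measured binding sites.

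Line 84 stood apart from the other lines, in some lists mainly in its knockout array and in others in both arrays. A list of 8 measured interferon response genes averaged a log2 level of 7.29 in rescued and 10.14 in knockout cells of line 84, against 5.73 to 5.94 in the other rescued and 5.72 to 5.86 in the other knockout arrays. The 9 progenitor markers averaged 11.39 in rescued and 11.68 in knockout cells of line 84. The other rescued arrays had 10.97 to 11.07 and the other knockout arrays 11.11 to 11.25. By mean over the 8 arrays, 9 of 9 progenitor markers lay above the median level of all probe sets, Flt3 only just (level percentile 50.6), while hepatocyte (7 of 7) and fibroblast (6 of 6) markers all lay below it. The medians of the 8 arrays spanned 7.32 to 7.35. Values below are log2 levels after RMA, the lines are given in the order 6A, 6B, 6D and 84, and differences are rescued minus knockout within a line. Only the number of arrays, and no count of molecules, sets their precision.

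Every one of the 7 enzymes had a higher level with PICALM than with the empty vector, and this held within each of the 4 lines, by the probe set with the highest mean level of each gene. The differences were small, 1.11-fold (Hmgcs1) to 1.38-fold (Mvd), with a median log2 difference of 0.31 over the 7 genes, beside 0.0061 over the brightest probe set of all genes. Over all probe sets of the members, 13 of 17 were higher with PICALM in each of the 4 lines, a pattern shown by 12.0% of all probe sets. Of the 17, 12 had an unadjusted p under 0.05 in the paired limma fit, all of them higher, against 6.17% of all probe sets. None passed the 12.3% false discovery rate of the study after Benjamini-Hochberg adjustment, with adjusted p from 0.249 to 0.808, where 0.00442% of all probe sets were called higher and 0.0751% lower (1 and 17 probe sets). An exact sign-change test of a single gene over 4 lines could not go below p = 0.125. Several of these enzymes were named by the study from the same arrays, so their direction here is not independent evidence.

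**Figure D1:**
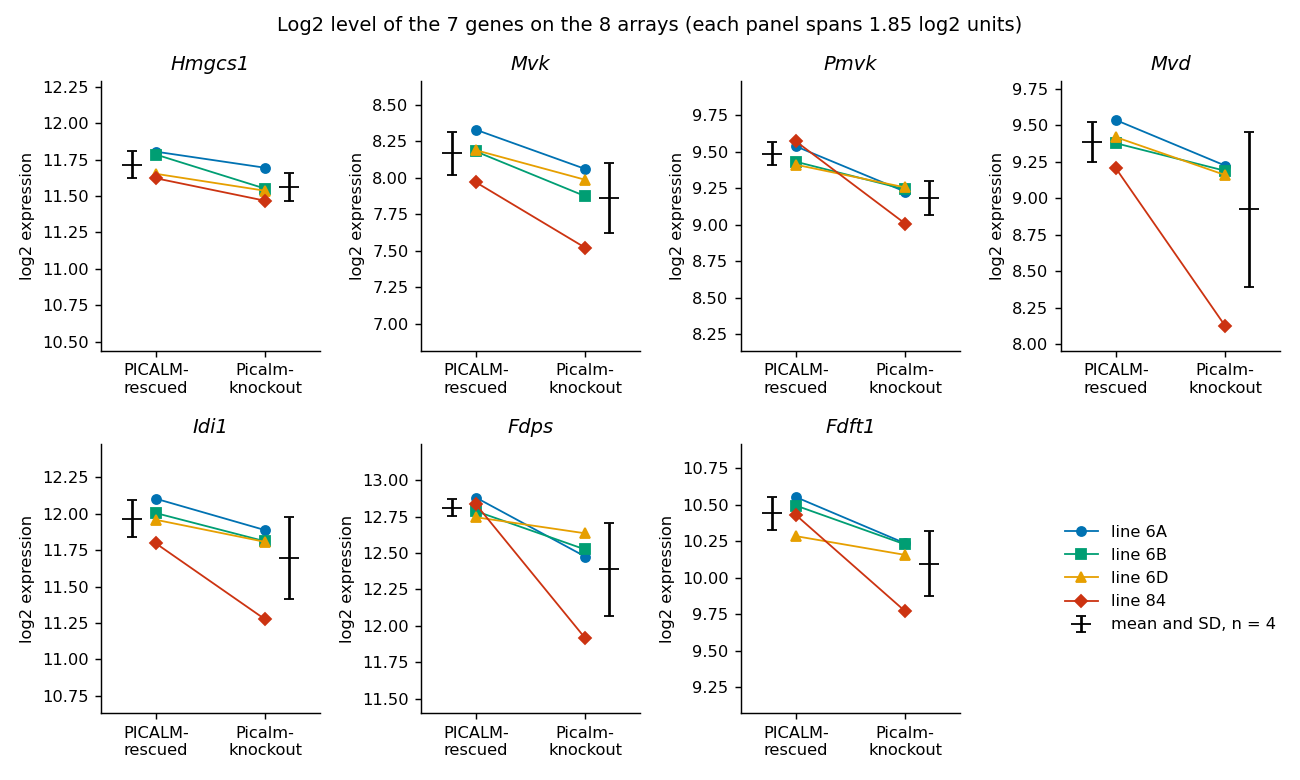
Log2 level (y axis) of the probe set of highest mean level of each of the 7 genes in PICALM-rescued (left) and Picalm-knockout (right) cells, with 1 point per array, a line joining the arrays of a cell line, and the mean with SD of 4 arrays beside each group. All joined pairs fall to the right, and the knockout array of line 84 is the lowest point of every panel.

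Hmgcs1 encodes the cytosolic HMG-CoA synthase, which makes HMG-CoA from acetoacetyl-CoA and acetyl-CoA. Its brightest probe set, 1433444_at, read 11.80, 11.78, 11.65 and 11.62 in rescued and 11.69, 11.55, 11.54 and 11.47 in knockout cells. The groups overlapped, since the rescued arrays of lines 6D and 84 lay below the knockout array of line 6A, but within each line the rescued array was higher. The mean was 11.72 ± 0.09 in rescued and 11.56 ± 0.10 in knockout cells (SD, n = 4 each), a log2 difference of 0.15 with a standard error of 0.045 (1.11-fold, limma adjusted p = 0.334). This was the smallest difference of the 7 genes.

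The other Hmgcs1 probe sets gave somewhat larger differences. Probe set 1433443_a_at read 11.81, 11.87, 11.62 and 11.81 in rescued and 11.56, 11.57, 11.45 and 11.41 in knockout cells, and every rescued array lay above every knockout array. Its difference of 0.28 ± 0.052 (SE) was 1.22-fold (limma adjusted p = 0.257). Probe sets 1433445_x_at and 1433446_at differed by 0.20 and 0.21 (1.15-fold and 1.16-fold, limma adjusted p = 0.319 and 0.327) and were also higher in all 4 lines. The 3 followed the brightest probe set over the 8 arrays with r of 0.821 to 0.944, a description only, since the arrays share 4 lines and the probe sets share transcripts.

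Mvk encodes mevalonate kinase, which adds the first phosphate to mevalonate. Its probe set 1418052_at read 8.33, 8.18, 8.19 and 7.97 in rescued and 8.06, 7.87, 7.99 and 7.52 in knockout cells. Line 84 had the lowest level in both groups, and its rescued array lay below the knockout arrays of lines 6A and 6D, so that the groups overlapped. The within-line differences of 0.27, 0.31, 0.20 and 0.45 averaged 0.31 ± 0.055 (SE), with a 95% interval of 0.17 to 0.44 (1.24-fold), and this probe set had the lowest adjusted p of the 17 in limma, 0.249. The second probe set, 1430619_a_at, did not follow it in every line. It read 8.05, 7.98, 8.02 and 7.85 in rescued and 7.87, 7.94, 8.05 and 7.58 in knockout cells, higher in 3 of 4 lines, with a difference of 0.12 ± 0.063 (SE, limma adjusted p = 0.490), and 0.07 without line 84.

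Pmvk encodes phosphomevalonate kinase, the next step. Its only probe set read 9.54, 9.43, 9.41 and 9.57 in rescued and 9.23, 9.24, 9.26 and 9.01 in knockout cells. Every rescued array lay above every knockout array, and line 84 held both the highest and the lowest value. The mean was 9.49 ± 0.08 in rescued and 9.18 ± 0.12 in knockout cells (SD, n = 4 each), a difference of 0.31 ± 0.078 (SE, 1.24-fold, limma adjusted p = 0.319).

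Mvd encodes mevalonate diphosphate decarboxylase, which removes carbon dioxide to give isopentenyl diphosphate, and it had the largest difference of the 7 genes only while line 84 was included. Probe set 1448663_s_at read 9.54, 9.38, 9.42 and 9.21 in rescued and 9.22, 9.19, 9.16 and 8.12 in knockout cells. In knockout cells, line 84 lay 1.04 below the lowest of the other 3 knockout arrays, and the rescued array of that line was the only rescued one under a knockout array. The difference was 0.46 ± 0.16 (SE), or 1.38-fold, with a 95% interval of 0.07 to 0.85 (limma adjusted p = 0.356). By line it was 0.31, 0.19, 0.26 and 1.08, and it averaged 0.25 without line 84, where Mvk and Fdps both had 0.26. Without line 6D, Mvd and Fdps were both at 0.53. Probe set 1417303_at gave nearly the same values, 9.39, 9.34, 9.43 and 9.12 in rescued and 9.24, 9.21, 9.15 and 8.03 in knockout cells. Its difference was 0.41 ± 0.17 (SE, 1.33-fold, limma adjusted p = 0.406) with all lines and 0.19 without line 84, and the 2 probe sets correlated at 0.991 over the 8 arrays.

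Idi1 encodes isopentenyl diphosphate isomerase, which makes dimethylallyl diphosphate, the starter unit of isoprenoid chains. Probe set 1451122_at read 12.10, 12.00, 11.96 and 11.80 in rescued and 11.89, 11.81, 11.81 and 11.27 in knockout cells. Line 84 was lowest in both groups, and its rescued array lay below the knockout arrays of the other 3 lines. The difference was 0.27 ± 0.073 (SE, 1.21-fold, limma adjusted p = 0.328). Probe set 1423804_a_at read 10.34, 10.43, 10.37 and 9.88 in rescued and 10.29, 10.18, 10.27 and 9.40 in knockout cells, with a difference of 0.23 ± 0.081 (SE, 1.17-fold, limma adjusted p = 0.368), and it too was higher in all 4 lines. Without line 84 the differences were 0.19 and 0.14.

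Fdps encodes farnesyl diphosphate synthase, which makes the last product shared by the sterol and non-sterol branches. Probe set 1423418_at read 12.88, 12.79, 12.75 and 12.83 in rescued and 12.48, 12.52, 12.63 and 11.92 in knockout cells. The rescued arrays were tightly grouped (12.81 ± 0.06, SD, n = 4), the knockout arrays were not (12.39 ± 0.32, SD, n = 4), and the groups did not overlap. The difference was 0.42 ± 0.13 (SE, 1.34-fold, limma adjusted p = 0.345), with 0.92 in line 84 and 0.11 in line 6D, and 0.26 without line 84. The other probe set, 1438150_at, was among the dimmest on the array (level percentile 4.55), read 4.05 to 4.13 in rescued and 3.89 to 4.22 in knockout cells, and was higher in only 2 lines (0.06 ± 0.072, SE, limma adjusted p = 0.769).

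Fdft1 encodes squalene synthase, which joins 2 farnesyl units and commits them to sterols. Its brightest probe set, 1438322_x_at, read 10.55, 10.50, 10.29 and 10.43 in rescued and 10.24, 10.23, 10.16 and 9.77 in knockout cells, and probe set 1448130_at read 10.05, 9.87, 9.81 and 9.98 in rescued and 9.68, 9.65, 9.60 and 9.01 in knockout cells. Neither showed any overlap between the groups. Their differences were 0.34 ± 0.091 (SE, 1.27-fold) and 0.44 ± 0.14 (SE, 1.36-fold), with limma adjusted p of 0.323 and 0.342, and without line 84 they were 0.24 and 0.27. The 2 remaining probe sets, 1438918_at and 1438919_x_at, lay at level percentiles of 29.6 and 25.1, between 5.27 and 5.86 on all 8 arrays, and were higher in 3 and 2 lines, by 0.12 ± 0.097 and 0.03 ± 0.047 (SE, limma adjusted p = 0.627 and 0.808). They followed the brightest probe set weakly, with r of -0.101 and 0.193.

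Across the 17 probe sets, 5 had every rescued array above every knockout array, a pattern that 1.88% of all probe sets showed in this direction. They were 1 of Hmgcs1, 1 of Pmvk, 1 of Fdps and 2 of Fdft1. SAM is the statistic named in the methods, which do not state whether the lines were paired. SAM paired by line called 2 of the 17 higher (Hmgcs1 1433443_a_at and Mvk 1418052_at), against 0.539% of all probe sets. SAM without pairs called 0 of the 17. The genes that the paper selected by SAM and tested for pathways included Hmgcs1, Pmvk, Fdps and Fdft1. Of these, only Hmgcs1 was called by SAM here, in the paired form, and why the calls differ was not tested. The 4 probe sets that were not higher in all lines were the second of Mvk, the dim one of Fdps and the 2 dim ones of Fdft1. Since these are bulk cultures, a shift in the kinds of cells present and a shift in RNA per cell cannot be told apart.

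**Figure D2:**
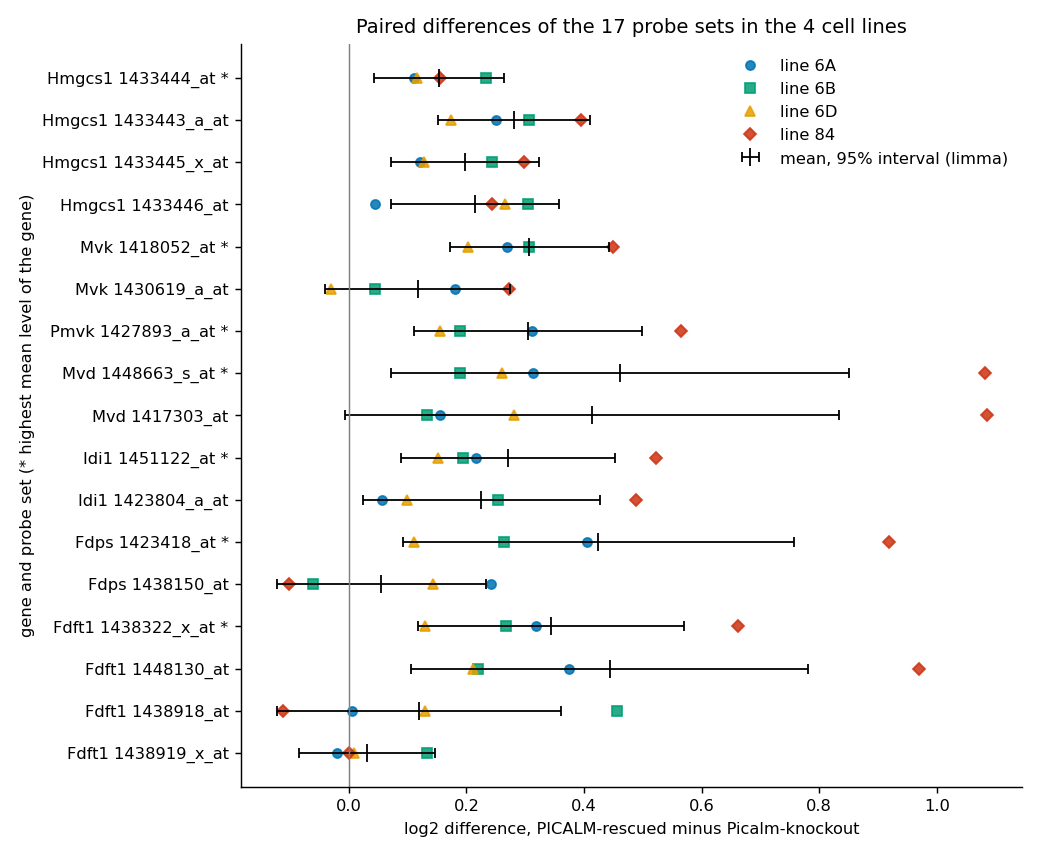
Log2 difference of rescued minus knockout (x axis) in each cell line for the 17 probe sets (y axis, in pathway order), with the mean and its 95% interval from the paired limma fit. Points of line 84 lie beyond the other lines for Mvk, Pmvk, Mvd, Idi1, the brightest Fdps and 2 Fdft1 probe sets, up to 1.08 and 1.09 for Mvd. They do so also for Hmgcs1 1433443_a_at and 1433445_x_at, while Hmgcs1 1433444_at shows 0.15 in line 84.

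The size of the difference varied among the lines. By median over the 7 genes, line 84 had 0.57, line 6A had 0.31, line 6B had 0.23 and line 6D had 0.15, and all 7 genes were higher in each. By the brightest probe sets, line 84 had the largest difference in 6 of the 7 genes, Hmgcs1 being the exception, and the lowest knockout level in 7 of 7. Hmgcs1 1433443_a_at and 1433445_x_at did have their largest difference in line 84 (0.40 and 0.30). The mean level of the 7 genes spanned 10.49 to 10.68 in rescued and 9.87 to 10.40 in knockout cells, and the knockout value of line 84 was the 9.87. The other 3 knockout arrays lay between 10.35 and 10.40. The SD over lines was smaller in rescued than in knockout cells for 7 of 7 genes, with the low knockout array of line 84 included. Over lines 6A, 6B and 6D alone, the levels of Pmvk, Mvd, Idi1 and Fdft1 spanned a wider range in rescued cells. Those of Hmgcs1, Mvk and Fdps spanned a wider range in knockout cells.

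A limma fit of the 4 paired differences with a term for line 84 asked whether that line differed from the other 3. The term passed the 12.3% threshold for 4 of the 17 probe sets, against 7.02% of all probe sets. The 4 were both probe sets of Mvd (0.83 ± 0.10 and 0.90 ± 0.10, SE, adjusted p = 0.029 and 0.028), Fdps 1423418_at (0.66 ± 0.14, adjusted p = 0.094) and Fdft1 1448130_at (0.70 ± 0.11, adjusted p = 0.052). At Hmgcs1 1433444_at the term was close to 0 (adjusted p = 0.997). This contrast was chosen with the position of line 84 already known. It sets 1 paired difference against 3, so line 84 has no spread of its own and is assumed to vary like the other lines, and the calls describe this culture only. Without line 84, 14 of the 17 probe sets were higher in all 3 remaining lines, beside 19.9% of all probe sets, and the differences of the 7 genes spanned 0.15 to 0.26, with a median of 0.24. Of the 17, 12 still had an unadjusted p under 0.05 (7.44% of all probe sets were higher at that level), and 0 passed the threshold, as with all 4 lines.

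The steps after squalene had the direction of the members. From the list of squalene-to-cholesterol enzymes, 10 of 11 genes were measured, and 10 of 10 were higher in all 4 lines, with a median log2 difference of 0.31, 8 with an unadjusted p under 0.05 and 0 past the threshold in limma or called by SAM. Over all probe sets, 12.0% were higher in all 4 lines and 6.17% were higher with an unadjusted p under 0.05. Without line 84 this median was 0.19, with Msmo1 at 0.18 and Ebp at 0.05. The 4 with the smallest p were Sqle, the squalene epoxidase that opens this branch (0.25 ± 0.062, SE, adjusted p = 0.318), Nsdhl, a sterol dehydrogenase in the removal of the C4 methyl groups (0.32 ± 0.079, adjusted p = 0.318), Hsd17b7, a ketoreductase in the same process (0.32 ± 0.098, adjusted p = 0.342), and Msmo1, the C4-methylsterol oxidase (0.32 ± 0.10, adjusted p = 0.352). The knockout array of line 84 was low here also, since the list averaged 10.07 to 10.33 on the rescued arrays, 9.43 on that one and 10.06 to 10.12 on the remaining knockout arrays. Ebp, the sterol isomerase, had the smallest difference of the list with all 4 lines, 0.10 ± 0.056 (SE, adjusted p = 0.501). Without line 84 the smallest was that of Dhcr7, 0.04, against 0.64 in line 84.

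**Figure D3:**
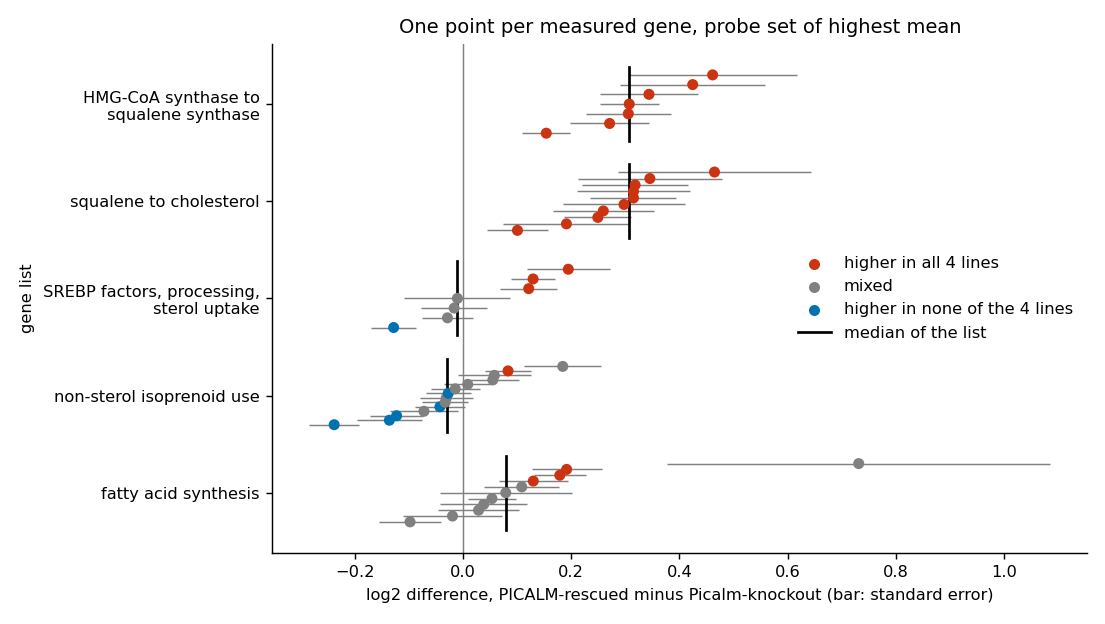
Log2 difference of rescued minus knockout (x axis, bar for the standard error) for every measured gene of 5 lists (y axis), coloured by how many of the 4 lines were higher in rescued cells, with a bar at each list's median. The members and the squalene-to-cholesterol list both have medians of 0.31 with every point on the higher side, and the other lists have medians of -0.03 to 0.08.

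The genes that control SREBP and sterol uptake had mixed directions. Of 11 listed, 7 were measured, 3 were higher and 1 was lower in all 4 lines, and the median was -0.01, or 0.04 without line 84. Srebf2, which encodes SREBP2, read 9.64, 9.64, 9.64 and 9.84 in rescued and 9.53, 9.55, 9.47 and 9.69 in knockout cells. It was higher in each line by 0.09 to 0.17, and it was highest in line 84 of both groups, whereas all 7 members had their lowest knockout level in that line. Its difference was 0.13 ± 0.041 (SE, 1.09-fold, limma adjusted p = 0.347), and its correlation with the mean profile of the members over the 8 arrays was 0.014. Stard4, a sterol carrier and SREBP2 target, was higher by 0.19 ± 0.076 (adjusted p = 0.392), and Mylip, the ubiquitin ligase of the LDL receptor and an LXR target, by 0.12 ± 0.053 (adjusted p = 0.422). Mbtps1, the site-1 protease that cuts SREBP in the Golgi, was lower in all 4 lines, with a difference of -0.13 ± 0.042 (adjusted p = 0.351), and was the only gene of this list that SAM paired by line called. Srebf1, Scap and Insig2 differed by -0.01 to -0.03 with mixed directions. For Srebf1 this averaged -0.18, -0.15 and -0.07 in lines 6A, 6B and 6D with 0.35 in line 84.

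Enzymes that use farnesyl and geranylgeranyl diphosphate outside the sterol branch did not share the direction of the members. Of 20 listed, 14 were measured, with a median of -0.03, 1 higher and 4 lower in all 4 lines, and 0 past the threshold in limma. Of all 22626 probe sets, 2705 were higher and 2677 lower in all 4 lines. SAM paired by line called 1 of the 14, Trit1, lower (470 of all probe sets), and SAM without pairs called 0. Trit1, which places an isopentenyl group on tRNA and so draws on dimethylallyl diphosphate, the product of Idi1, had the smallest p of the list. It read 8.33, 8.26, 8.38 and 8.65 in rescued and 8.58, 8.59, 8.57 and 8.84 in knockout cells, a difference of -0.24 ± 0.046 (SE, 0.848-fold, limma adjusted p = 0.270). The rescued array was lower in every line, and the groups overlapped only through line 84. Ggps1, which extends farnesyl to geranylgeranyl diphosphate, differed by -0.12 ± 0.049 (adjusted p = 0.396) and Fntb, the beta subunit of farnesyltransferase, by -0.14 ± 0.060 (adjusted p = 0.428), both lower in 4 lines. Srd5a3, which makes dolichol from polyprenol, was higher in 3 lines, by 0.18 ± 0.071 (adjusted p = 0.387).

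Enzymes that use HMG-CoA and ketone bodies in mitochondria gave no common direction. The 3 measured of 5 listed, Acat1, Oxct1 and Bdh1, differed by -0.06, -0.02 and 0.13, with none higher or lower in all 4 lines. Of the 11 fatty acid synthesis genes, all measured, 3 were higher in all 4 lines and 0 lower, with a median of 0.08, or 0.04 without line 84. Over all probe sets, 12.0% were higher in all 4 lines. Elovl5, a fatty acid elongase, differed by 0.18 ± 0.048 (SE, adjusted p = 0.323), Acss2, the cytosolic acetyl-CoA synthetase, by 0.19 ± 0.065 (adjusted p = 0.353) and Fasn, fatty acid synthase, by 0.13 ± 0.064 (adjusted p = 0.459). Scd1, the stearoyl-CoA desaturase, had the largest value of this list, 0.73 ± 0.35 (adjusted p = 0.455), with 2.10 in line 84 and -0.03 in line 6B.

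Over the 8 arrays, each member followed the mean of the other 6, with r from 0.819 (Hmgcs1) and 0.865 (Pmvk) to 0.968 (Idi1). The points share 4 cell lines and the low knockout array of line 84, so these values describe these arrays only. Among genes that are no members, the mean profile of the 7 was followed most closely by Ceacam1 (r = 0.993), Kctd20 (0.992), Ppp3ca (0.987), Msrb1 (0.985), Clec4a2 (0.981), Hk1 (0.980), Creb3l1 (0.979), Stk10 (0.979), Cables1 (0.978) and Pigs (0.977), all of them higher in the rescued cells of 4 lines. The nearest sterol enzymes were Sc5d at rank 30 and Msmo1 at rank 32 of this order, each with r of 0.965. Trit1 and Fntb ran opposite to the members, with r of -0.864 and -0.834.

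Markers of other cell types also differed in level between the groups, although 0 passed the threshold in limma. SAM paired by line called the granule genes Camp and Lcn2 and the mast cell gene Cpa3 higher and the progenitor gene Cd34 lower, and SAM without pairs called only Lcn2 of these lists. Over all 22626 probe sets, SAM paired by line called 122 higher and 470 lower. In all 4 lines, 2705 of these probe sets were higher and 2677 lower. Of 7 neutrophil granule genes, 5 were higher in all 4 lines and 0 lower, with a median difference of 1.65 and an array mean of 8.71 to 10.56 in rescued and 7.28 to 8.29 in knockout cells, for example Lcn2 (1.83 ± 0.34, SE, limma adjusted p = 0.260). The 7 mast cell and basophil genes, of which 4 had the higher level with PICALM in every line and 1 had the lower, had a median of 0.77 (0.33 without line 84), with array means of 6.0 to 8.83 in rescued and 5.74 to 7.33 in knockout cells, both highest in line 84, and Cpa3 differed by 1.92 ± 0.42 (adjusted p = 0.310). Among 9 progenitor genes the median was 0.04, 3 were higher in every line, and the 1 lower in every line was Cd34, a surface marker of progenitors (-1.25 ± 0.24, adjusted p = 0.261). Kit and Flt3 were each higher in only 1 line, with differences of -0.26 ± 0.084 and -0.61 ± 0.27 (adjusted p = 0.347 and 0.427). Spi1 and Mpo, higher in every line, differed by 0.23 ± 0.057 and 0.12 ± 0.045 (adjusted p = 0.318 and 0.378). Erythroid genes (4 measured of 6) had a median of 0.07 (0.14 without line 84) and proliferation genes (9 measured of 10) one of 0.01, with Mki67 at 0.28 ± 0.11 (adjusted p = 0.381). The part of these markers, and of the interferon response of line 84, in the differences of the 7 genes was not tested.

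**Figure D4:**
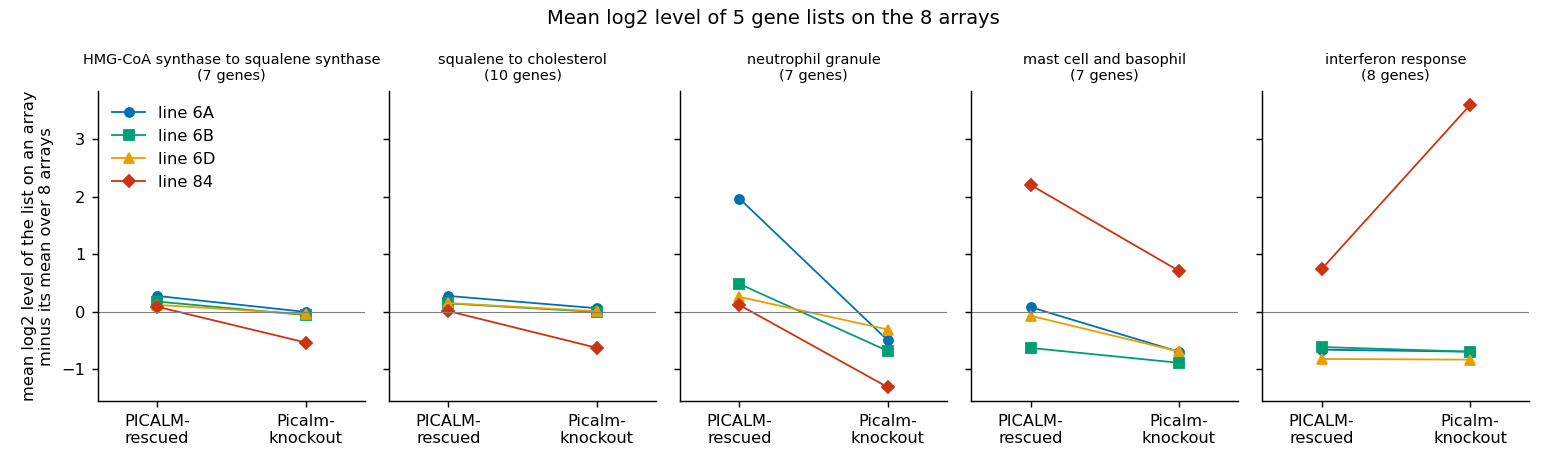
Mean log2 level of 5 gene lists on each array minus its mean over the 8 arrays (y axis), in PICALM-rescued (left) and Picalm-knockout (right) cells, with a line joining the arrays of a cell line. The members and the squalene-to-cholesterol genes both have the knockout array of line 84 as the lowest point, the granule list is highest in rescued cells of line 6A (10.56 before centring), and the interferon list is highest in knockout cells of line 84 (10.14).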

How the data were processed

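Total RNA of 8 samples was hybridized to Affymetrix mouse arrays (the labels name the A version, the methods the full one). The deposited values are RMA output of the authors on the log2 scale and were not normalized again. The table had 22690 probe sets, and without 64 controls 22626 were tested, of which 20380 had 1 symbol in the platform annotation, 691 several and 1555 none. The gene ID of 20351 was found in a current gene table, and 0 symbols changed. The number of columns left unmapped was 0.

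Rescued and knockout arrays were compared with limma 3.58.1 in R 4.3.3 (statmod 1.5.0; lmFit, eBayes, two-sided) with the cell line as a block, p-values adjusted by Benjamini-Hochberg across all of them, and the 12.3% threshold that the methods give for SAM. Both arrays of a line derive from that line, which is the source of the pairing, and, after subtracting group means, the 2 arrays of a line correlated at 0.623 to 0.811. P-values of the paired fit set the mean within-line difference against its spread over 4 lines, which eBayes moderates with all probe sets. Each line has 1 array per group, and the lines are treated as independent. The paper calls the lines biological replicates but does not state whether each came from its own embryo. If some lines share an origin, the p-values rest on fewer independent units than lines. SAM, written from its published formula, used 16 sign changes (paired) or 70 arrangements (unpaired). The scripts were tested on simulated data.

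The 7 members and 14 other gene lists (122 entries, 102 matched) were chosen with earlier results of these data known. The text names every member probe set, up to 4 genes of each other list by smallest unadjusted p, and the 10 genes most correlated with the members' mean profile. Ebp, Dhcr7, Sc5d, Srebf1, Scap, Insig2 and Flt3 were added after their values were seen. A gene was represented by the probe set of highest mean. Promoter motifs were counted on both strands. Alternatives were no block, SAM, quantile normalization, median centring, dropping the dimmest 40% of probe sets, array weights, eBayes with trend and robust, a threshold of 0.05, averaging a gene's probe sets, and dropping each line. A withheld item is not reported here.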

Additional observations from a re-analysis of the deposited data

Results flagged for a closer look

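In 10 of the 34 groups of 4 arrays (17 probe sets, 2 groups each), 1 array lay far from the other 3 by Dixon's 95% criterion, where chance gives about 1 in 20, and the probe sets of a gene share their arrays. The value is the gap to the nearest array as a share of the group's range. In 7 of the 10, it was the knockout array of line 84 that lay lowest. These were Pmvk with 0.882 (9.01 against 9.23 to 9.26), Mvd 1448663_s_at with 0.941 (8.12 against 9.16 to 9.22), Mvd 1417303_at with 0.929 (8.03 against 9.15 to 9.24), and Idi1 1451122_at with 0.868 (11.27 against 11.81 to 11.89). The others were Idi1 1423804_a_at with 0.877 (9.40 against 10.18 to 10.29), Fdft1 1438322_x_at with 0.830 (9.77 against 10.16 to 10.24) and Fdft1 1448130_at with 0.891 (9.01 against 9.60 to 9.68). In rescued cells, line 84 lay low at Idi1 1423804_a_at with 0.840 (9.88 against 10.34 to 10.43). The knockout array of line 6A lay high at Hmgcs1 1433446_at with 0.860 (9.37 against 9.10 to 9.14), and that of line 6D lay low at Fdft1 1438919_x_at with 0.865 (5.27 against 5.46 to 5.49).

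The rescue difference of line 84 exceeded that of the other 3 lines past the threshold of the limma term for 4 probe sets, by 0.83 for Mvd 1448663_s_at, 0.90 for Mvd 1417303_at, 0.66 for Fdps 1423418_at and 0.70 for Fdft1 1448130_at on the log2 scale. This term sets 1 line, chosen after it was seen to stand apart, against 3 and has no spread of its own for that line. The same knockout array had the high interferon response list (10.14), and the relation between these values was not tested.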

How the results depend on the processing

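Of the 17 probe sets of the members, 0 passed the 12.3% threshold in the paired limma fit, 2 under SAM paired by line (Hmgcs1 1433443_a_at and Mvk 1418052_at) and 1 with a variance trend and robust settings (Hmgcs1 1433443_a_at, adjusted p = 0.10). Without the replicate block 0 passed, with a lowest adjusted p of 0.969, and 0 passed under the other alternatives and without any 1 line. Over all probe sets, the calls higher and lower in rescued cells were 1 and 17, against 0 and 0 without the block, 122 and 470 under SAM paired, 11 and 39 under SAM unpaired, 25 and 92 with array weights, 19 and 81 with the trend, 0 and 4 at a threshold of 0.05, 0 and 21 without the dimmest 40%, and 1 and 2 with the mean over the probe sets of a gene. Without line 6A, 6B or 6D there were 0 calls, and without line 84 there were 8 and 42. The count higher in all lines was 13 of 17, beside 12.0% of all probe sets. It was 13 to 14 without a line (15.8% to 19.9% of all). With the mean over probe sets it was 7 of 7 genes (13.3% of all genes). The member count past the line 84 term rose without the dimmest 40% and fell with the trend, as over all probe sets. The median of 0.31 over the 7 genes was 0.24 to 0.36 without a line, 0.27 with array weights and 0.24 with the mean over probe sets. Of 225 single values under 14 alternatives, 220 kept their direction and side of the threshold, 3 are the calls above, and 2 changed sign, Fdps 1438150_at (-0.0066 without line 6A, up to 0.11 without another line) and Fdft1 1438919_x_at (-0.0032 without line 6B, up to 0.048 without another). The difference itself could not change without the block, under SAM, without the dimmest 40%, with the trend or at a threshold of 0.05. These alternatives alter only the test, and a threshold of 0.05 could add no call, so kept directions there carry no weight. The medians of the other lists without line 84 were added after seeing the data. The 4 lines, and 1 array for each, limit the precision, and dim probe sets carry little signal over background.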
